A study of Bos taurus with 48 samples.

Results

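Neuronatin (NNAT, ENSBTAG00000003212) is 1 of the 24616 genes counted in subcutaneous adipose tissue of 24 Norwegian Red heifers. It was chosen by its log2 fold changes between energy levels at 12 months of age, at which it is listed among the differing genes of the study, so its energy contrasts at that age are given below as a description without a test. The heifers were fed low-protein high-energy (LPHE), low-protein low-energy (LPLE), high-protein high-energy (HPHE) or high-protein low-energy (HPLE) diets, which began at 3 months of age and ended once a heifer was found pregnant, with 6 heifers per diet. Each diet had 3 heifers of a genetic group selected for milk yield (HMY) and 3 of a genetic group selected against clinical mastitis (LCM). Each heifer was biopsied at 12 months of age on its experimental diet and again in month 7 of gestation, at 20 to 24 months of age, when all heifers had ad libitum access to the same low-energy feed. Sampling time, age, pregnancy and current diet therefore cannot be told apart. High-energy (HE) heifers grow faster, and reach puberty and the breeding weight at a younger age, than low-energy (LE) heifers.

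NNAT encodes a small proteolipid of the endoplasmic reticulum membrane. It is an imprinted gene, expressed in mammals from the paternally inherited copy, and it is best known from the developing brain, the pancreatic islet and adipose tissue. Its protein resembles phospholamban, the small membrane protein that holds back the SERCA calcium pumps, and it has been linked to calcium stores of the endoplasmic reticulum, to the maturation of fat cells from their precursors and, in people, to obesity. The gene lies inside a larger gene, BLCAP, and its nearest other neighbours are SRC and CTNNBL1 (RefSeq annotation of ARS-UCD2.0, where NNAT has 2 transcripts). The counts were made on another assembly, UMD3.1. The library kit does not mark strand, so reads of NNAT and of overlapping BLCAP transcripts cannot be told apart, and counts per gene do not show from which parental copy a transcript came. BLCAP itself was not analysed here.

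Between 14815595 and 61027456 reads per library were counted on genes, and NNAT received 248 to 15393 of them. Counting error was thus at most 6.35% of a value, well under the spread between heifers, which was 29.4 to 84.5% of the mean within a diet and time (coefficient of variation). Levels are given as CPM, the counts of a gene scaled to the library size, after TMM normalization over all 48 libraries. The negative binomial coefficient of variation of NNAT was 0.43 at 12 months and 0.402 in gestation, against a median of 0.24 and 0.213 over all genes tested, and 88.7% and 89.6% of genes varied less. Libraries differed in the share of reads that did not align uniquely, with the highest values in an HPLE heifer (39.97%) and an HPHE heifer (33.1%) in gestation, whose NNAT levels of 61.3 and 65.4 CPM were inside the range of their groups. Of the adipocyte markers listed, only LEP and CIDEC could be matched to an identifier, and their summed level was at least 887 CPM in every library.

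At 12 months, NNAT was low in heifers on either HE diet and high in heifers on either LE diet. HPHE heifers had 46.6, 96.7 and 129 CPM (lowest, median and highest), and HPLE heifers had 200.4, 309 and 541 CPM. No HPHE heifer reached the lowest HPLE heifer. The gene was chosen by this contrast, and how many other genes separate in this way was not examined. LPHE heifers had 17.01, 78.3 and 294 CPM, and LPLE heifers had 148, 224 and 445 CPM. Here the diets overlapped, because 2 LPHE heifers, both HMY, with 179 and 294 CPM stood above the lowest LPLE heifer. The lowest value of all 48 libraries, 17.01 CPM, was also that of an LPHE heifer, and the coefficient of variation was largest in LPHE (84.5%).

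The group means at 12 months were 119 ± 101 CPM in LPHE, 257 ± 107 in LPLE, 93.8 ± 27.5 in HPHE and 333 ± 122 in HPLE (SD, n = 6 each). The log2 fold change HE-LE was -1.30 (SE 0.372) in LP and -1.83 (SE 0.37) in HP heifers, and -1.57 (SE 0.262) as the mean of both, which is 2.96-fold more in LE than in HE. These are the contrasts by which the gene was chosen. The difference between the LP and HP contrasts was 0.53 on the log2 scale (SE 0.513). Over all genes tested at this age, 7.2% were called for HE-LE overall (FDR under 0.05, 4.69% higher and 2.51% lower in HE), 7.08% for HE-LE in LP and 0.12% for HE-LE in HP (both FDR under 0.1). Leaving out 1 heifer at a time moved the overall difference between -1.76 (without the LPHE heifer at 294 CPM) and -1.40 (without the LPLE heifer at 445 CPM).

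**Figure D1:**
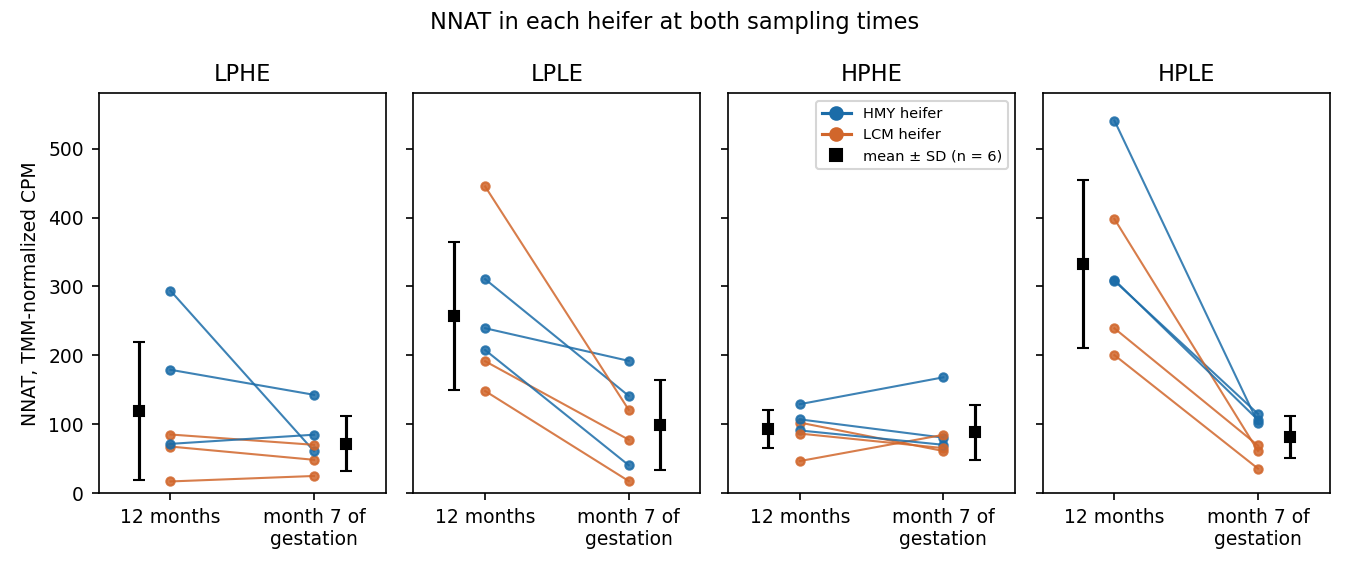
NNAT in TMM-normalized CPM (vertical axis, linear from 0) in each heifer at 12 months and in month 7 of gestation, by diet; lines join the samples of 1 heifer, colours mark the genetic group, and black squares with bars are the mean ± SD of 6 heifers. All 6 HPLE heifers stood at 200.4 CPM or more at 12 months and at 115 CPM or less in gestation, whereas HPHE heifers were between 46.6 and 168 CPM at both times.

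Bulk RNA does not separate fewer cells of a type from less RNA per cell, and other genes with known cell types moved with energy at 12 months too. These markers have an identifier only because they are in the study's lists of genes that differed at that age. Their movement at 12 months is therefore no independent evidence of a change in cell types. The summed level of the adipocyte markers LEP and CIDEC was 2043 to 3376 CPM (median 2846) in HE and 887 to 2814 CPM (median 1606) in LE heifers. That of 4 of 9 fibroblast and progenitor markers (DCN, COL1A1, COL3A1 and PI16) was 13724 to 41768 CPM (median 26268) in HE and 22603 to 68296 CPM (median 39909) in LE heifers. Since NNAT is also a neuronal gene, the Schwann cell genes SOX10 and CDH19 were examined. Their log2 fold changes HE-LE at 12 months were -0.74 (FDR = 0.13) and -0.66 (FDR = 0.162), and those in gestation were 0.54 (FDR = 0.491) and 0.46 (FDR = 0.358). Skeletal muscle markers (5 of 7) had medians of 0.902 and 5.25 CPM at 12 months, with single libraries up to 123 CPM in HE and 117 CPM in LE. The share of these cell types in the NNAT difference was not tested.

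Within diet and time, NNAT was only weakly correlated with these Schwann cell and muscle genes. After the mean of each diet and time was subtracted, the correlation of log2 CPM with NNAT over 48 samples was 0.04 for SOX10 and -0.13 for CDH19. It was 0.04 for MYH2 and 0.02 for MYH7. Among the markers of adipose cells it was -0.04 for LEP, 0.22 for CIDEC, -0.30 for DCN, -0.27 for PI16, 0.28 for COL1A1 and 0.31 for COL3A1. For comparison, the middle 90% of all 13717 other genes lay between -0.45 and 0.48.

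In month 7 of gestation the question was whether heifers reared on different energy levels still differed, and in these samples, which had no part in choosing the gene, no difference was detected. LPHE heifers had 24.9, 65.6 and 143 CPM (lowest, median and highest) and LPLE heifers 17.6, 99.4 and 192 CPM. HPHE heifers had 61.2, 75.4 and 168 CPM and HPLE heifers 35.7, 85.5 and 115 CPM. The diets overlapped almost completely, with all 12 HE heifers above the lowest LE heifer and 11 of 12 LE heifers below the highest HE heifer. The means were 72.0 ± 40.2 CPM in LPHE, 98.4 ± 65.4 in LPLE, 88.4 ± 40.1 in HPHE and 81.6 ± 31.1 in HPLE (SD, n = 6 each).

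The log2 fold change HE-LE in gestation was -0.16 (SE 0.237, FDR = 0.802), that is 0.892-fold in HE relative to LE with a 95% interval from 0.647 to 1.23. It was -0.49 (SE 0.336, FDR = 0.691) in LP and 0.16 (SE 0.335, FDR = 1) in HP heifers, and the difference between these contrasts was -0.65 (SE 0.475, FDR = 1; edgeR likelihood ratio test throughout). A permutation test of log2 CPM between 12 HE and 12 LE heifers gave p = 0.851 (two-sided), and the exact permutation tests of 6 against 6 heifers gave p = 0.682 in LP and p = 0.714 in HP. At this time 3.74% of 13403 genes were called for HE-LE over both protein levels, 1.05% for HE-LE in LP and 0.948% for HE-LE in HP. On the log2 scale the interval of the difference ran from -0.63 to 0.30. Leaving out 1 heifer at a time moved the difference between -0.27 and -0.04, the extremes being without the LPLE heifers at 17.6 and 121 CPM, and with the same heifers left out the contrast in LP was -0.70 and -0.25.

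Dietary protein left no detectable mark on NNAT at either time. At 12 months the log2 fold change HP-LP was -0.22 (SE 0.363, FDR = 1) in HE, 0.32 (SE 0.36, FDR = 1) in LE and 0.05 (SE 0.254, FDR = 1) as the mean of both, with a 95% interval from -0.45 to 0.55 for the last. In gestation it was 0.35 (SE 0.336, FDR = 1) in HE, -0.30 (SE 0.335, FDR = 1) in LE and 0.02 (SE 0.237, FDR = 1) as their mean, with an interval from -0.44 to 0.49. The permutation p of the 6 comparisons was between 0.238 and 0.991, by exact permutation for those of 6 against 6. Few genes were called for protein at all, 0.0225% of genes in each of the 3 contrasts at 12 months, and 0.00746%, 0.0746% and 0.0746% in gestation for HP-LP in HE, in LE and their mean. The energy and protein contrasts of 1 time use the same 24 samples.

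In 20 of 24 heifers NNAT was lower in gestation than at 12 months, among them all 12 LE heifers and 8 of 12 HE heifers. Over the 4 diets the log2 fold change, gestation relative to 12 months, was -1.08 (SE 0.187), which is 2.12-fold more at 12 months. The 12-month samples in this comparison are those by which the gene was chosen, so these values are a description without a test. Over all genes, 37.4% were called between the times (18% higher and 19.4% lower in gestation).

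The decrease was larger in LE than in HE heifers, a split that follows from the 12-month levels by which the gene was chosen. In HPLE heifers NNAT was 2.67 to 6.49 times as high at 12 months as in gestation (median 4.38, n = 6), and in LPLE heifers 1.25 to 8.42 times as high (median 3.07). In HPHE heifers the ratio was 0.55 to 1.67 (median 1.31) and in LPHE heifers 0.682 to 4.82 (median 1.23). Of the LE heifers, 11 of 12 had more than 2 times as much NNAT at 12 months, whereas only 1 HE heifer did, the LPHE heifer that fell from 294 to 61.0 CPM. The log2 fold change over time was -1.79 (SE 0.27) in LE and -0.38 (SE 0.261) in HE heifers. Ordered by mean level, the groups ran from HPLE and LPLE at 12 months to LPHE at 12 months and then to LPLE in gestation, HPHE at 12 months, and HPHE, HPLE and LPHE in gestation. Only the step from LPLE to LPHE at 12 months, 138 CPM, exceeded the pooled SD of the neighbours (104 CPM), and each other step between neighbours was smaller than their spread.

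Levels of the same heifer at both times were compared within each energy level. Among the 12 HE heifers, log2 CPM at 12 months and in gestation had a Pearson r of 0.618 (permutation p = 0.0451) and a Spearman rho of 0.336 (permutation p = 0.29), and without the 2 heifers farthest from the median at 12 months r was 0.589. Among the 12 LE heifers r was 0.601 (permutation p = 0.0336) and rho 0.566 (permutation p = 0.059), with an r of 0.425 without the 2 farthest. The Benjamini-Hochberg adjusted p of both r, over these 2 relations, was 0.0451, and the adjusted p of the rank correlations was 0.29 and 0.118, so that the linear but not the rank correlations passed. Over all 24 heifers, after the mean of each diet was subtracted, r was 0.563 and rho 0.547 (permutation p = 0.00648 and 0.00676), and when the mean of each diet and genetic group was subtracted, a setting chosen after the data were seen, r was 0.445 and rho 0.404 (permutation p = 0.0318 and 0.0508). The LPHE heifer that was lowest at 12 months (17.01 CPM) was also the lowest HE heifer in gestation (24.9 CPM), and the HPHE heifer that was highest of its diet at 12 months (129 CPM) was highest again in gestation (168 CPM). In the LE group the LPLE heifer with the lowest level at 12 months (148 CPM) had the lowest of all in gestation (17.6 CPM). Other heifers changed their order. The highest HE heifer at 12 months (294 CPM) was below the HE median of 70.2 CPM in gestation, at 61.0 CPM. The lowest HPHE heifer went from 46.6 to 84.7 CPM, and an HPLE heifer from 398 to 61.3 CPM.

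**Figure D2:**
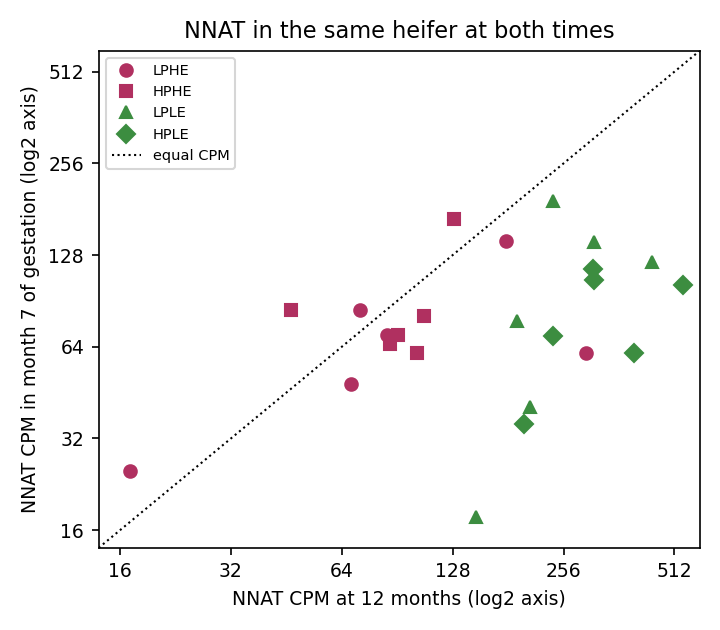
NNAT CPM of each of 24 heifers at 12 months (horizontal, log2 axis) and in month 7 of gestation (vertical, log2 axis), with symbols for the diets and a dotted line of equal CPM. LE heifers (green) all lie below the line, and HE heifers (red) lie around it (r = 0.618 within HE and 0.601 within LE).

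In these samples the median of NNAT was higher in HMY than in LCM heifers, but genetic group was not called for NNAT at either time. In gestation HMY heifers had 40.6, 104 and 192 CPM (lowest, median and highest, n = 12) and LCM heifers 17.6, 63.3 and 121 CPM. The median of the 3 HMY heifers was above that of the 3 LCM heifers in 4 of 4 diets, and 9 HMY but only 3 LCM heifers stood above the median of all 24. The genetic groups, of 3 heifers each, did not overlap in 1 of 4 diets (HPLE). How often this happens for other genes was not examined. The log2 fold change HMY-LCM was 0.84 (SE 0.239, FDR = 0.146), that is 1.79-fold with a 95% interval from 1.295 to 2.48. It did not pass the FDR over all genes, for which 0.0522% of genes were called in this contrast. The two-sided permutation test of NNAT alone gave p = 0.00646 for 12 HMY against 12 LCM heifers. Benjamini-Hochberg adjustment over the 13 permutation tests made on NNAT gave 0.042. The 13 include the change over time, which is given here only as a description and had the smallest p. Without that test the adjusted p would be above 0.05, so no genetic difference is claimed from it.

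At 12 months the direction was the same and the difference less clear. HMY heifers had 71.5, 224 and 541 CPM and LCM heifers 17.01, 125 and 445 CPM, and again the HMY median was higher in 4 of 4 diets. In LPLE the mean was nevertheless lower in HMY heifers, with 253 against 262 CPM, because the highest LPLE heifer was LCM. The log2 fold change was 0.63 (SE 0.26, FDR = 0.405, permutation p = 0.135), and 0.0075% of genes were called. Diet was in the fit, but the permutation shuffled heifers across diets. The difference between energy levels at 12 months therefore widened its spread, and its p is not comparable with that in gestation. With the mean of both times of each heifer as its value, HMY heifers were higher by 0.79 on the log2 scale. The permutation p was 0.0158, adjusted 0.0685 over the 13 tests, among which the change over time again lowers the adjusted p. This comparison was chosen after the values of each time were seen. The heifers are the same at both times, so the 2 times are not separate evidence for a genetic difference. Sires and families within a genetic group were not analysed here.

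**Figure D3:**
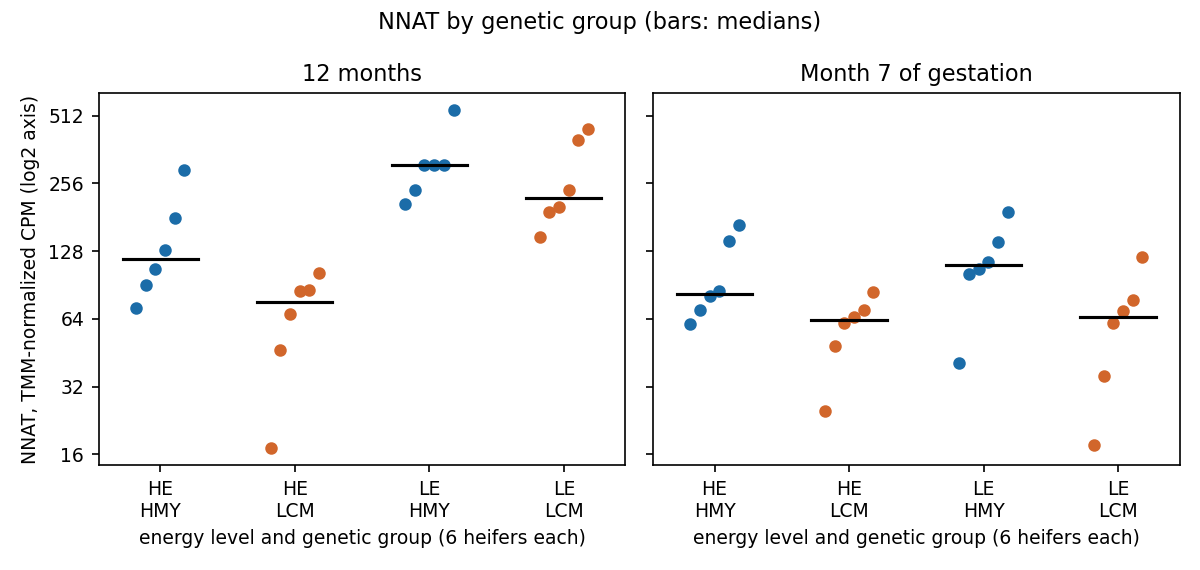
NNAT CPM (log2 axis) of each heifer by energy level and genetic group at both times, with 6 heifers per column and bars at the medians. The HMY column stood above the LCM column of the same energy level in its median at both times, with overlap in each pair.

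Of the variation in log2 CPM over the 48 samples, 22.7% went with time, 14.8% with energy and 12.6% with the interaction of both. Genetic group held 12.4%, protein 0.928%, and differences between heifers within diet and genetic group 22.7%. The other interactions that were computed held at most 0.606% each. The rest, 13.1%, holds the residual between the samples of a heifer together with the interactions of genetic group with diet, which were not computed. These shares describe the samples and, for the terms with energy, include the contrast by which the gene was chosen.

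Other imprinted genes were examined next. Of 22 listed, 5 had an identifier, namely IGF2, PEG3, PLAGL1, GRB10 and SGCE, and the others were not analysed here. Identifiers come from the lists of genes that differed at 12 months, so their directions at that age are no independent evidence, and with 22.7% of the list covered no statement about imprinted genes as a group is made. At 12 months all 5 were lower in HE, and 2 of 5 passed an FDR of 0.05, where 7.2% of all genes did. PLAGL1, a zinc finger regulator of growth and of other imprinted genes, fell by 0.46 on the log2 scale (FDR = 5.47e-04), and GRB10, an adaptor that dampens insulin receptor signalling, fell by 0.62 (FDR = 0.00557). PEG3, a zinc finger protein, had a log2 fold change of -0.67 (FDR = 0.0728), SGCE, a membrane protein of the sarcoglycan family, one of -0.36 (FDR = 0.0699), and IGF2, a fetal growth factor, one of -0.26 (FDR = 0.281). The median of the 5 was -0.46, and that of all genes -0.03.

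In gestation the same 5 genes had log2 fold changes HE-LE above 0, from 0.07 for PLAGL1 to 0.39 for PEG3, and none was called with the likelihood ratio or the quasi-likelihood test of edgeR (FDR between 0.113 and 0.774 with the former), where 3.74% of all genes were called. An unadjusted p under 0.05 was found for 3 of the 5 (SGCE, GRB10 and PEG3) and for 2165 of all 13403 genes. Their median was 0.30, against 0.01 for all genes. NNAT, at -0.16, was on the other side of 0. Over time, SGCE was higher in gestation by 0.33 on the log2 scale (FDR = 0.0011). IGF2, PEG3, PLAGL1 and GRB10 had values between -0.08 and -0.01 (FDR between 0.538 and 0.887). Of all genes, 37.4% were called between the times, and the 12-month samples of that comparison are those behind the study's lists. The correlation of NNAT with IGF2 over 48 samples, after the mean of each diet and time was subtracted, was 0.48 (0.39 at 12 months and 0.56 in gestation), and with PLAGL1 it was 0.41 (0.59 and 0.17). With PEG3, GRB10 and SGCE it was 0.09, -0.12 and -0.10.

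**Figure D4:**
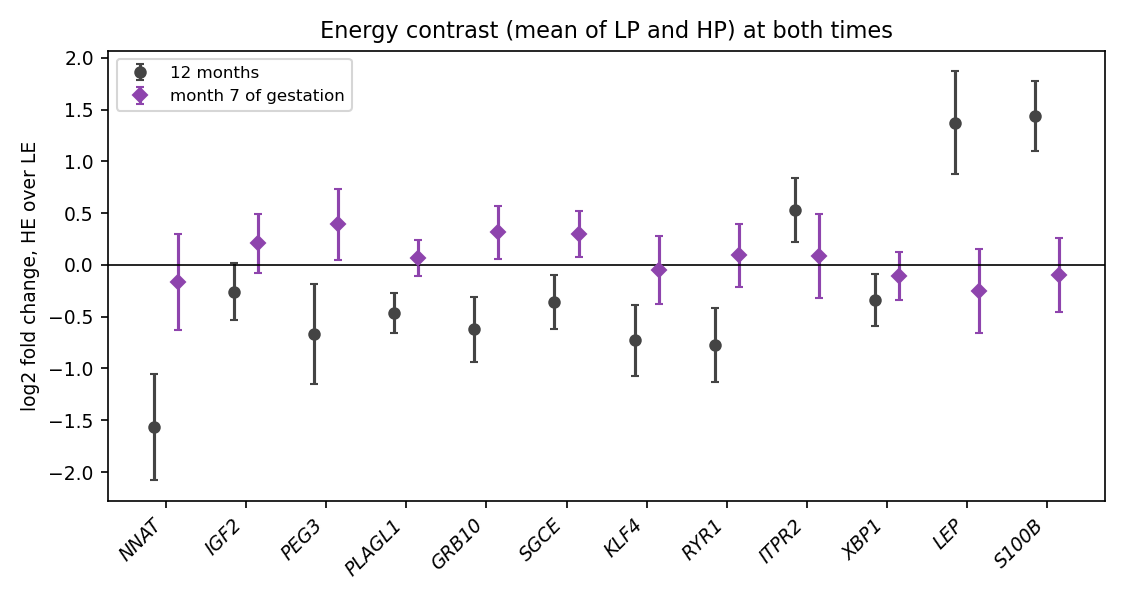
Log2 fold change HE over LE (mean of LP and HP contrasts, with 95% intervals) of NNAT, 5 imprinted genes, genes of calcium release, endoplasmic reticulum stress and adipogenesis, LEP and S100B, at 12 months (circles) and in month 7 of gestation (diamonds). NNAT was lowest of these at 12 months (-1.57) and near 0 in gestation (-0.16), and LEP and S100B also moved from above 1 to values near 0.

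Genes of the calcium stores and of fat cell formation, for which NNAT is known, were covered only in part. No identifier was at hand for the SERCA pumps and their regulators (0 of 9), the signal peptidase complex (0 of 5) or the neighbours of NNAT (0 of 7), and these were not analysed here. That holds for PLN, SLN, ATP2A2, DLK1, MEST, CREB1, CEBPB, CEBPD and PPARG as well. Of the calcium release and entry genes (2 of 10 with an identifier), both were called at 12 months and in opposite directions, where 7.2% of all genes were called. Both have an identifier because they are among the genes that differed at that age, as are XBP1 and KLF4, so these calls are no independent evidence. The release channel RYR1 fell in HE by 0.77 on the log2 scale (FDR = 0.00177), and the inositol trisphosphate receptor ITPR2 rose by 0.53 (FDR = 0.0169). The stress-responsive factor XBP1 (1 of 12) had -0.34 (FDR = 0.0782), and KLF4 (1 of 13), an early factor of adipogenesis, fell by 0.73 (FDR = 0.0023). In gestation none of these 4 was called (log2 fold changes from -0.11 to 0.09, FDR of at least 0.723), where 3.74% of all genes were.

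The largest opposite movements among the named genes were those of LEP and S100B. LEP, the adipocyte hormone that reports fat stores, was higher in HE by 1.37 on the log2 scale at 12 months (FDR = 3.32e-05), and S100B, a calcium-binding protein that adipocytes also make, by 1.44 (FDR = 6.58e-13). Both have an identifier because they are among the genes that differed at that age, so these calls are no independent evidence. In gestation the log2 fold changes HE-LE of LEP and S100B were -0.25 (FDR = 0.606) and -0.09 (FDR = 0.863). Within diet and time their correlations with NNAT were weak, at -0.04 for LEP and -0.03 for S100B over 48 samples. Between the times 37.4% of all genes were called. The 12-month samples of that comparison are those that put LEP and S100B in the study's lists, so their calls over time are no independent evidence either. Averaged over the diets, LEP rose over time by 0.54 on the log2 scale (FDR = 0.0123). S100B fell by 0.50 (FDR = 6.7e-04). The energy levels differed in these changes. Mean S100B went from 416 to 173 CPM in HE and from 155 to 184 CPM in LE heifers. Mean LEP went from 530 to 450 CPM in HE and from 224 to 542 CPM in LE heifers. Mean NNAT went from 106 to 80.2 CPM in HE and from 295 to 90.0 CPM in LE heifers. The fall of S100B thus lay in HE heifers, and that of NNAT mostly in LE heifers.

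The genes whose levels went most closely with NNAT were sought among the 1000 genes with a symbol, over 48 samples after the mean of each diet and time was subtracted. The highest correlations were those of KLHL25, an adaptor of a ubiquitin ligase (0.65), AIFM3, a mitochondrial oxidoreductase (0.62), PIEZO1, a mechanically gated cation channel (0.60), LHX6, a homeobox factor (0.60), and CDH15, a cadherin (0.58). Among the lowest were those of HINT3, a nucleotide hydrolase (-0.52), RNF19A, a ubiquitin ligase (-0.50), and SH3BGRL (-0.46). KLHL25 had a correlation of 0.85 at 12 months and 0.47 in gestation, and PIEZO1 one of 0.59 and 0.61. Among all 13717 genes, ENSBTAG00000013018 had the highest value (0.75) and ENSBTAG00000031715 the lowest (-0.73). The points share libraries and normalization, and the symbols come from lists of genes that differed with energy, so these values describe likeness of levels in these samples only.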

How the data were processed

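Polyadenylated RNA of 48 biopsies was sequenced with a TruSeq v2 kit. The deposited files hold raw counts per Ensembl gene, made by the authors with HTSeq on the UMD3.1 assembly after trimming and alignment (cutadapt 1.3 and TopHat2 2.0.12 per the submitters' processing notes). The 5 summary rows of the counting tool were left out. Diet, time, genetic group and heifer were taken from the labels. Symbols, that of NNAT included, were matched through the study's supplementary lists of differing genes. NNAT and all lists were chosen with earlier results of these data known. Genes named are NNAT, listed genes called at 12 months, a set of imprinted, calcium and adipogenic genes, and the 5 highest and 5 lowest in correlation with NNAT, some of which are not reported here.

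A gene was kept where 3 or more samples reached 2 CPM (13339 at 12 months, 13403 in gestation, 13718 over both). Counts were normalized with TMM and fitted in edgeR 4.0.16 (R 4.3.3) with diet and genetic group, tagwise dispersions and the likelihood ratio test. The comparison of times used diet by time and genetic group over 48 samples. FDR (Benjamini-Hochberg over all genes) was 0.1 for 6 against 6 heifers and 0.05 otherwise. The SE is the log2 fold change over the root of the statistic, and 95% intervals follow from it. Single values were compared as log2(CPM + 0.5) by two-sided permutation tests. These were exact for 6 against 6 (smallest possible p 0.00216) and used 100000 resamples otherwise (smallest 2e-05). Shuffles of heifers between groups did not hold the other factors of the design fixed. Alternatives were the quasi-likelihood test, DESeq2 1.42.0, RLE factors, library size, other filters, no genetic group, all samples in the fit, a heifer block, each heifer left out, a pseudocount of 2 and, after the data were seen, other dispersions. On simulated counts (HE-LE overall in gestation, 13151 genes), the likelihood ratio test recovered 200 of 200 genes changed by 1.5 on the log2 scale. Of its 223 calls, 10.3% were false, which is above the FDR of 0.05. Recovery of smaller changes, or at the spread of NNAT, was not tested.

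Samples of 1 heifer pair across times by the labels. The correlation of their deviations from the group means had a median of 0.304 over 24 heifers, against -0.02 for other pairs. No 2 libraries of a group agreed within sampling noise (lowest chi-square per degree of freedom 38.3 over 120 pairs). Depth does not limit NNAT, which had at least 248 counts. Lanes were not analysed here.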

Additional observations from a re-analysis of the deposited data

Results flagged for a closer look

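In 12 groups of 6 heifers (8 of levels and 4 of the change over time), 2 values of NNAT stood apart from the rest of their group by Dixon's gap over range, for which the 95% critical value is 0.625. Chance flags about 1 in 20 groups. The HPHE heifer with 168 CPM in gestation was far above the other 5 (gap over range 0.781), and the same HMY heifer was the highest of its diet at 12 months as well, where it did not stand apart. Without it, the log2 fold change HE-LE in HP heifers in gestation was 5.78e-04 in place of 0.16, and HMY-LCM in gestation was 0.76 in place of 0.84.

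The LPHE heifer that fell from 294 CPM at 12 months to 61.0 CPM in gestation had a log2 change of -2.26, below those of the other 5 (gap over range 0.636), which were between -0.48 and 0.54. It was the only HE heifer whose fall was as large as those of most LE heifers. Without it, the log2 fold change HE-LE at 12 months was -1.68 in LP, in place of -1.30.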

How the results depend on the processing

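In the alternatives to the fit, up to 9 per contrast, NNAT kept the direction of each energy contrast and of the change over time (-1.09 to -0.99), and no protein, genetic group or gestation energy contrast was called. With the heifer as replicate block the change over time was -1.06. HMY-LCM in gestation had an FDR between 0.128 and 0.379 in those alternatives, between 0.0212 and 0.347 with 1 heifer left out, and passed 0.05 only without 1 LPLE heifer. Leaving out 1 heifer gave 0.75 to 0.97 for HMY-LCM in gestation, -0.0674 to 0.25 for HP-LP overall at 12 months, -0.0875 to 0.15 for HP-LP overall in gestation and -0.46 to 0.18 for HP-LP in HE at 12 months, so that the last 3 changed sign. With a pseudocount of 2 the permutation difference of HP-LP in LE in gestation was -0.00437 in place of 0.00469. The number of genes called for HE-LE overall at 12 months was 1598 with DESeq2 and 1465 with all samples in the fit (960 in the main fit, and 620 to 1579 with 1 heifer left out). In gestation it was 1151 with DESeq2 and 801 with other dispersions, which were chosen after the data were seen (501 in the main fit, and 342 to 754 with 1 heifer left out). Among named genes, over time library size alone gave GRB10 0.0335, IGF2 0.0109, PEG3 0.0245 and PLAGL1 0.0786, and the heifer block gave PEG3 0.0253, all with the opposite sign. KLF4 in gestation was 0.00136 with library size alone. At 12 months PEG3, SGCE and XBP1 were called in some alternatives, and ITPR2 was not called with library size alone (FDR = 0.0504). The causes of these shifts were not tested.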
